A study of Mus musculus with 70 samples.

Results

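YUMMER1.7 is a mouse melanoma cell line on the C57BL/6 background, and the comparison described here sets YUMMER1.7 cells stimulated with interferon gamma (IFNg) against unstimulated YUMMER1.7 cells (NS). It holds 6 of the 70 RNA sequencing libraries of a study that stimulated 8 mouse cancer cell lines with IFNg or interferon beta (IFNb), and it was taken over all genes of the deposited count table. The YUMMER1.7 IFNg group has 3 libraries from cells given 100 ng/mL IFNg for 48 h, and the YUMMER1.7 NS group has 3 libraries from cells given no cytokine, for which the labels give no time. Another YUMMER1.7 group of 3 libraries received 1000 activity units/mL IFNb for 48 h. All of them were grown in the same serum-supplemented DMEM with penicillin and streptomycin. The other lines, used where the response of YUMMER1.7 is set against theirs, are B16.1 (melanoma, C57BL/6), CT26.2 (colorectal, BALB/c), KPC.2 (pancreatic, C57BL/6), LLC (lung, C57BL/6), MC38.7 (colorectal, C57BL/6), Panc02.3 (pancreatic, C57BL/6) and Renca (renal, BALB/c), with the same doses. As background, YUMMER1.7 was made by ultraviolet irradiation and cloning of a Braf-mutant mouse melanoma line, so it is a single clone grown outside an animal, and what it does need not hold for other melanomas. The labels do not say whether libraries of a group came from separate cultures, so each p-value covers only variation among the libraries at hand, part of which may be technical.

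IFNg is made mainly by T cells and natural killer cells. It binds a receptor of IFNGR1 and IFNGR2 chains, whose kinases JAK1 and JAK2 phosphorylate STAT proteins. STAT pairs bind GAS elements in promoters and switch on a first set of genes, among them Irf1. IRF1 then binds ISRE elements of a later set, which includes antigen presentation genes, guanylate-binding proteins and chemokines, while SOCS1 and other inhibitors damp the pathway. Type I interferons such as IFNb use another receptor and the ISGF3 complex, which holds STAT2 and IRF9 and also binds ISRE elements, so many genes answer both cytokines.

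The 6 libraries held between 5549342 and 12506596 estimated counts, the lowest in IFNg replicate 3 and the highest in NS replicate 3. Between 15452 and 16637 genes had at least 1 count in the IFNg libraries, and between 16868 and 17216 in the NS libraries. IFNg replicate 3 stood apart from the other IFNg libraries on the second principal component (41.45 against -24.13 and -22.03), which held 12% of the variance, and it was also the shallowest library. The components were taken over all YUMMER1.7 libraries, those given IFNb included, so these shares are not those of the 6 libraries alone. The first component held 35.1% and separated the IFNg libraries (40.86 to 49.73) from the rest. The NS libraries (-24.86 to -19.13) and the IFNb libraries (-23.31 to -20.98) overlapped on it. Cdkn2a, a gene deleted in the parental line, had 18.5, 16.7 and 16.5 CPM, which are counts scaled to library size, in the IFNg libraries and 22.8, 20.4 and 18.8 CPM in the NS libraries. This is a count over the whole gene, which cannot show whether single exons are missing.

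The pigment programme that defines melanocytes was nearly silent in these libraries. Tyrp1, Mlana, Slc45a2, Oca2, Gpr143, Rab38 and Kit had 0 counts in all 6 libraries, and Sox10, Tyr and Dct did not exceed 0.518 CPM in any of them. Pmel, which encodes the melanosome matrix protein, had 0.945, 1.14 and 1.19 CPM in the IFNg libraries and 0.828, 0.599 and 1.24 CPM in the NS libraries. In B16.1, the other melanoma line, Pmel averaged 1129 CPM with IFNg and 3949.7 CPM without, and Sox10 averaged 581 CPM with IFNg and 433 CPM without. YUMMER1.7 did express Mitf (24.9, 22.6 and 21 CPM in IFNg libraries, against 23.9, 17.5 and 18.6 CPM in NS libraries), the neural crest factor Pax3 (64.3, 61.2 and 68.7 CPM, against 68.1, 61.1 and 59.1 CPM) and the receptor tyrosine kinase Axl (1283, 1289 and 1242 CPM, against 1160.1, 1068 and 1044 CPM). The melanoma label therefore finds Mitf, Pax3 and Gpnmb in these libraries, while the defining pigment genes are absent or close to it. Leukocyte markers were as low: 6 of 20 listed genes, among them Cd3e, Nkg7, Klrb1c, Adgre1 and Mpo, were at 0 in all 6 libraries, and the 20 genes summed to 9.86, 12.63 and 12.50 CPM in the IFNg libraries and 10.45, 10.43 and 10.60 CPM in the NS libraries. Of the 6 of these genes that passed the filter on low counts Ms4a1, a B cell marker, rose: it had 0.675, 3.62 and 3.77 CPM with IFNg and 0.207, 1.44 and 0 CPM without (log2 difference 2.37, adjusted p = 0.039), the groups overlapped, and the call was lost with DESeq2 (adjusted p = 0.1), with the replicate block (0.072) and without IFNg replicate 2 (0.16) or 3 (0.12) or NS replicate 1 (0.15) or 3 (0.22). The part of leukocytes in the results was not tested.

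IFNg changed a small share of the genes by a large factor. Of 16147 genes tested, 382 rose at least 2-fold (2.37%) and 251 fell at least 2-fold (1.55%) at an adjusted p under 0.05. Here and below, rose and fell mean an adjusted p under 0.05 from the quasi-likelihood test of edgeR, adjusted by Benjamini and Hochberg's method over all genes tested, and log2 differences are IFNg over NS with their standard error (SE). Without the fold threshold 1580 genes rose (9.79%) and 1778 fell (11.0%), the shares beside which list counts below are to be read. Of these, 89 genes rose at least 8-fold and 37 fell as much, and the median log2 difference was 1.87 among the 382 and -1.53 among the 251. The 382 risen genes took 5.89%, 6.0% and 5.95% of all counts in the IFNg libraries, against 1.78%, 1.61% and 1.49% in the NS libraries. In 372 of the 382 the lowest IFNg library lay above the highest NS library, and in 241 of the 251 the groups did not overlap the other way. Over all genes tested, 15.5% were without overlap with IFNg higher and 20.6% with IFNg lower. The median log2 difference of all genes was -0.034.

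**Figure D1:**
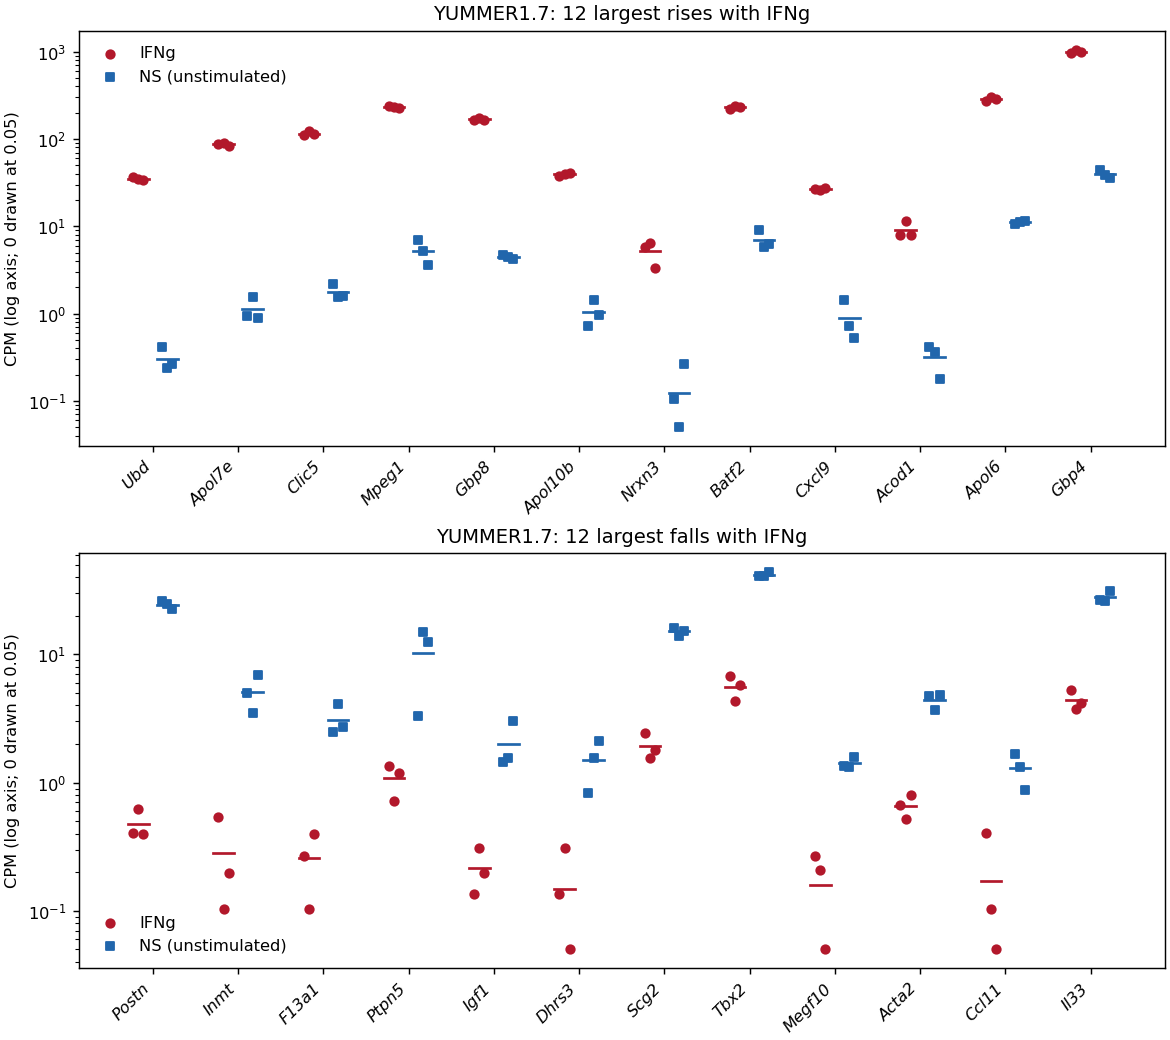
Level of the 12 genes with the largest rises and the 12 with the largest falls in YUMMER1.7, in CPM on a log axis, with IFNg left of NS. Each point is a library, the bar is the mean of a group, and a level of 0 is drawn at 0.05 CPM; for Ubd the 3 IFNg libraries lie between 33.7 and 36.9 CPM and the NS libraries between 0.24 and 0.414 CPM, while for Postn the IFNg libraries lie between 0.397 and 0.621 CPM and the NS libraries between 22.7 and 26 CPM.

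Most of the 12 largest rises were in genes that were low in unstimulated cells, although Apol6 averaged 11.1 CPM and Gbp4 39.4 CPM there. Ubd (chr17:37193892-37196095 in GRCm38), which encodes the ubiquitin-like modifier FAT10, had 36.9, 34.7 and 33.7 CPM in the IFNg libraries and 0.414, 0.24 and 0.265 CPM in the NS libraries, a log2 difference of 6.78 (SE 0.2, adjusted p = 1.5e-26). Apol7e (chr15:77698857-77719285), an apolipoprotein L gene, had 87.7, 90.2 and 83.7 CPM with IFNg and 0.932, 1.56 and 0.884 CPM without, a log2 difference of 6.30 (SE 0.38, adjusted p = 1.2e-20). In both genes each IFNg library was far above each NS library. Clic5, which encodes an intracellular chloride channel family protein, had 110.1, 123 and 113 CPM with IFNg and 2.17, 1.56 and 1.59 CPM without (log2 difference 6.01). Mpeg1, known as the pore-forming perforin-2 of macrophages, had 241, 234 and 229 CPM with IFNg and 6.94, 5.27 and 3.62 CPM without (log2 difference 5.49). The other leading rises were Gbp8 (log2 difference 5.25), Apol10b (5.25), the neurexin Nrxn3 (5.17), the transcription factor Batf2 (5.03), the chemokine Cxcl9 (4.89), Acod1 (4.83), Apol6 (4.69) and Gbp4 (4.68). Gbp8 and Gbp4 overlap on the same strand of chromosome 5, so their counts cannot be fully told apart. Among genes with at most 3 counts over the NS libraries, Serpina3f stood out, with 59.6, 65.1 and 65.9 CPM in the IFNg libraries and 0 counts in the NS libraries, at least 620-fold higher when the NS group is set to a floor of 3 counts. It belongs to a cluster of near-identical serpin genes, among which the estimated counts may be divided unevenly.

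The receptor and the STATs answered unevenly, and both receptor chains fell. Of 13 tested genes of the receptor and STAT list, 6 rose and 2 fell, with a median log2 difference of 0.16. Stat3 rose to 299, 297 and 287 CPM with IFNg, against 152, 139 and 149 CPM without (log2 difference 1.0). Stat2 (0.77), Jak2 (0.76), Ifnar2 (0.53) and Jak1 (0.16) rose less on the log2 scale. Ifngr2, the signalling chain of the receptor, had 43.9, 49.1 and 46.8 CPM with IFNg and 66.8, 61.6 and 67.5 CPM without (log2 difference -0.49, SE 0.07, adjusted p = 9.6e-08), and the ligand-binding chain Ifngr1 fell by 0.28 on the log2 scale (adjusted p = 0.0067). Irf9, a part of ISGF3, was already high and moved little, with 162, 161 and 155 CPM with IFNg and 149.7, 143 and 142 CPM without (log2 difference 0.14, adjusted p = 0.15).

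Transcription factors of the interferon response rose broadly. Of 15 tested interferon regulatory factors and their partners, 12 rose, 9 of them at least 2-fold, and none fell, with a median log2 difference of 1.29, or 1.69 with groups at 0 set to the floor and genes at or under it in both groups left out. Irf1 had 752, 829 and 775 CPM in the IFNg libraries and 112, 97.9 and 107 CPM in the NS libraries, a log2 difference of 2.89 (SE 0.06, adjusted p = 1.7e-42). Batf2, a basic leucine zipper factor that works with IRFs, had 218, 242 and 230.4 CPM with IFNg and 9.01, 5.75 and 6.27 CPM without. Irf8, best known from myeloid cells, had 34.6, 34.1 and 34.5 CPM with IFNg and 3.11, 3.36 and 2.56 CPM without (log2 difference 3.52). All 3 genes were without overlap between the groups. Nlrc5, the transactivator of MHC class I genes, had 298, 305 and 276 CPM with IFNg and 71.9, 62.2 and 53.7 CPM without (log2 difference 2.23), and Sp110 (2.20), Sp140 (2.09), Irf5 (1.29) and Irf2 (1.11) also rose at least 2-fold. Irf7, the factor that amplifies type I interferon, rose by less, to 461, 494 and 463 CPM with IFNg, against 324, 281 and 251 CPM without (log2 difference 0.73). Irf3 did not pass the test, with a log2 difference of 0.08.

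More inhibitors of the pathway rose than fell. Socs1, the main brake on JAK signalling, had 124, 119 and 131 CPM in the IFNg libraries and 21.4, 18 and 19.4 CPM in the NS libraries, a log2 difference of 2.66 (SE 0.11, adjusted p = 4.3e-29). Cish (1.46), Usp18 (0.69), the phosphatase Ptpn2 (0.61), Socs3 (0.46) and Pias1 (0.22) rose as well, so 6 of 14 tested inhibitors rose. Ptpn6 and Pias3 fell, by 0.68 and 0.21 on the log2 scale. Of all genes tested, 9.79% rose and 11.0% fell.

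Promoters of 5 of these genes are shown because they carry the GAS or ISRE letters named above. The genes span a transcription factor, an inhibitor, a chemokine and the steepest rises. Each is the 250 bases before the start of the gene in RefSeq's GRCm38.p6, read 5′ to 3′ on the strand of the gene, with matches in capitals. The letters searched were TTCNNNGAA for GAS, which is its own reverse complement, and GAAANNGAAA or its reverse complement TTTCNNTTTC for ISRE.
Irf1, chr11:53769764-53770013, plus strand: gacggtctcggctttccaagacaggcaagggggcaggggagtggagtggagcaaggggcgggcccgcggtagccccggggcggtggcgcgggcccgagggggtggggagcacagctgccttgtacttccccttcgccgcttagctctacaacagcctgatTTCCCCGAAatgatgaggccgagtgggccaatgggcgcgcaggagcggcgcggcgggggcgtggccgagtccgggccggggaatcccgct
Socs1, chr16:10785537-10785786, minus strand: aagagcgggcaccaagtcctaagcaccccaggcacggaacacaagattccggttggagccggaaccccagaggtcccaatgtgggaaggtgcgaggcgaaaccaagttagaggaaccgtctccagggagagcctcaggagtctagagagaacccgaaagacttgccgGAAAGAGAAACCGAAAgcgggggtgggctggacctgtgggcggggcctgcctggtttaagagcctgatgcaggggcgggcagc
Cxcl10, chr5:92348890-92349139, minus strand: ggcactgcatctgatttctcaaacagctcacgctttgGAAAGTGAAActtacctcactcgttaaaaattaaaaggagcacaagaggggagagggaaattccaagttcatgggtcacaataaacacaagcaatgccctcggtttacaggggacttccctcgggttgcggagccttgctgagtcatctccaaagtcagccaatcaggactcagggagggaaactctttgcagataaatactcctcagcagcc
Serpina3f, chr12:104214294-104214543, plus strand: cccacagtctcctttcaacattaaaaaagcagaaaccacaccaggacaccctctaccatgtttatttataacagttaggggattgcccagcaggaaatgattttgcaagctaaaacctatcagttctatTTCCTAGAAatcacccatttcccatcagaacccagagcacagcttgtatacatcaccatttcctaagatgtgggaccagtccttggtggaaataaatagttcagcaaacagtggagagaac
Apol7e, chr15:77698639-77698888, plus strand: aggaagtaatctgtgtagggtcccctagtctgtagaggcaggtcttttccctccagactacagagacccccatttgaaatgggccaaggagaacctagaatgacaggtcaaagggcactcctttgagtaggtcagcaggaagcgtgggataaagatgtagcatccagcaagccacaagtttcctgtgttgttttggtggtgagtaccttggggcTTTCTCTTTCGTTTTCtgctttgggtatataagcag
The match in Irf1 begins 90 bases before the start, and that in Serpina3f 121 bases before it. In Socs1 a pair of overlapping ISRE matches begins 83 and 77 bases before the start, in Cxcl10 an ISRE match begins 213 bases before it, and in Apol7e a pair of overlapping ISRE matches on the opposite strand begins 36 and 30 bases before it. Irf1 and Serpina3f each have 2 promoter entries in RefSeq, of which 1 is shown. For Apol7e the RefSeq start lies downstream of the gene start given above (77698857), which is from GENCODE. The Apol7e bases shown therefore run past the GENCODE start, to 77698888. Over 27025 genes with such a promoter, 8.13% held a GAS match and 3.46% an ISRE match. No share over the risen genes is given, because only 262 of the 382 could be matched to a promoter. A match describes letters and does not show that a factor binds there.

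Guanylate-binding proteins and immunity-related GTPases, both GTPase families that attack vacuoles of intracellular microbes, rose as whole families. Of 11 tested Gbp genes 10 rose, each at least 2-fold, with a median log2 difference of 3.18. Gbp2 had 3288, 3406 and 3335 CPM in the IFNg libraries and 202, 173 and 170.1 CPM in the NS libraries, a log2 difference of 4.20 (SE 0.08, adjusted p = 1.8e-44). Gbp4 lay between 977 and 1043 CPM with IFNg and between 35.6 and 43.8 CPM without, and Gbp5 rose by 3.18 on the log2 scale. Gbp2b was the exception, at 0.135, 0.207 and 0.198 CPM with IFNg and 0 counts without (adjusted p = 0.11). Gbp6 (2.53) and Gbp10 (4.41) are near-identical, so how reads divide between them is uncertain. All 12 tested immunity-related GTPases rose at least 2-fold, with a median log2 difference of 1.92. Igtp had 1546, 1598 and 1579 CPM with IFNg and 189, 158 and 151 CPM without (log2 difference 3.25, SE 0.07, adjusted p = 4.2e-42). Iigp1 had 1377, 1398 and 1400.4 CPM with IFNg and 241, 193 and 177 CPM without (log2 difference 2.77). The NS levels of these genes were well above 0 in every library, a point taken up with the other lines below. Tgtp1 (3.88) and Tgtp2 (1.69) share most of their sequence, and their sum is safer than either value.

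Antiviral effectors, many of them classical targets of type I interferon, rose often but by small factors. Of 38 tested genes 30 rose, but only 10 at least 2-fold, and the median log2 difference was 0.61. Ifit3, which binds foreign RNA and has the near copy Ifit3b, had 2747, 2847 and 2864 CPM in the IFNg libraries and 1838, 1586 and 1538 CPM in the NS libraries, a log2 difference of 0.77 (SE 0.09, adjusted p = 1.2e-09). Isg15, the ubiquitin-like modifier, had 896, 931 and 972 CPM with IFNg and 693, 651 and 589 CPM without (log2 difference 0.53). In both genes the NS libraries already held more than 500 CPM and the groups did not overlap. Samhd1, a nucleotide hydrolase that restricts viruses, was the steepest of the list, with 917, 953 and 930.5 CPM with IFNg and 237, 204 and 212 CPM without (log2 difference 2.10). Ifit2 (1.78), Herc6 (1.52), Oas3 (1.41) and Mx1 (1.07) rose at least 2-fold. The kinase Eif2ak2 (285, 292 and 282 CPM with IFNg, 280.1, 253 and 247 CPM without, adjusted p = 0.12) and the membrane protein Ifitm3 (824, 842 and 858 CPM with IFNg, 793, 759 and 737 CPM without, adjusted p = 0.21) did not pass the test.

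Sensors of foreign nucleic acid followed the same pattern. Of 20 tested genes 19 rose, 7 at least 2-fold, with a median log2 difference of 0.86. Zbp1, a sensor of left-handed nucleic acid that triggers cell death, had 558, 589 and 556 CPM in the IFNg libraries and 142, 123 and 111 CPM in the NS libraries, a log2 difference of 2.19 (SE 0.08, adjusted p = 4.9e-29). Ifi205 (2.34), Ifi204 (1.35), Trim30a (1.11) and the RNA sensor Tlr3 (1.07) rose at least 2-fold. The RNA helicases Ifih1 (0.86) and Ddx58 (0.23), the DNA sensor Cgas (0.37) and its partner Tmem173 (0.48) rose by less. Trim14 did not pass the test (0.46, adjusted p = 0.25). Ifi203, Ifi204, Ifi205 and Mndal belong to a cluster of similar genes, so values of single members are less certain than the count.

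MHC class I presentation rose nearly complete, from peptide cutting to the surface molecule. Of 29 tested genes 26 rose, 24 of them at least 2-fold, with a median log2 difference of 1.98. H2-K1, a classical class I heavy chain, had 3246, 3303 and 3273 CPM in the IFNg libraries and 719.9, 641 and 552 CPM in the NS libraries, a log2 difference of 2.36 (SE 0.08, adjusted p = 5.8e-32). H2-D1 had 3693, 3742 and 3755 CPM with IFNg and 1099.7, 991 and 876 CPM without (log2 difference 1.92), and the light chain B2m had 3557, 3629.9 and 3619.8 CPM with IFNg and 1875, 1732 and 1645 CPM without (log2 difference 1.04). The groups were far apart in each. Immunoproteasome subunits rose by more: Psmb9 had 275, 287 and 271 CPM with IFNg and 25.9, 26.6 and 23.7 CPM without (log2 difference 3.46), and Psmb8 rose by 2.72. The peptide transporter genes Tap1 (2.04) and Tap2 (2.55) and the loading factors Tapbpl (2.60) and Tapbp (1.47) rose too. Of the general chaperones used in loading, Pdia3 (0.43) and Calr (0.36) rose a little and Canx did not pass, with 916, 914 and 914 CPM with IFNg and 933, 877 and 955 CPM without. The non-classical H2-Q7 had 63.2, 65.8 and 56.8 CPM with IFNg and 4.87, 4.67 and 3.18 CPM without (log2 difference 3.90), although reads of H2-Q6 and H2-Q7 are hard to tell apart.

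MHC class II genes rose from almost nothing and stayed low. Ciita, the class II transactivator, had 4.32, 5.28 and 3.97 CPM in the IFNg libraries and 0, 0.599 and 0.265 CPM in the NS libraries, a log2 difference of 4.02 (SE 0.47, adjusted p = 7.8e-10). The invariant chain Cd74 had 7.97, 9.21 and 11.9 CPM with IFNg and 0.725, 0.839 and 0.0884 CPM without (log2 difference 4.17, SE 0.34, adjusted p = 2.2e-15). H2-Ab1 had 1.35, 1.04 and 1.98 CPM with IFNg and 0 counts without. Of 11 tested class II pathway genes 6 rose and H2-DMb2 fell, with a median log2 difference of 1.24, or 1.41 treated in that way. In a fit of the 6 YUMMER1.7 libraries alone, only 2 of these 11 were called risen. That fit applied its own filter on low counts and tested 12223 genes, so a gene it left out counts as not risen. The calls of H2-Aa and H2-Eb1 rest on IFNg libraries of which 1 is at 0 in each case, and both calls were lost when single libraries were left out. In B16.1, Cd74 averaged 187 CPM with IFNg and 0.165 CPM without.

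The checkpoint ligand PD-L1 rose strongly, while most other genes of that list did not pass the test. Cd274 (chr19:29367455-29388095), which encodes PD-L1, had 262, 282 and 279.8 CPM in the IFNg libraries and 42.1, 32.1 and 27.7 CPM in the NS libraries, a log2 difference of 3.02 (SE 0.08, adjusted p = 2.2e-37). The groups were widely separated. Tnfrsf14, which binds the inhibitory receptor BTLA, rose by 1.68 from a low level, and Lgals3 (0.71), the don't-eat-me signal Cd47 (0.30) and Lgals9 (0.23) rose a little. Cd276 fell by 0.37 on the log2 scale. Pvr (-0.03) and Nectin2 (-0.15) did not pass, so of 19 tested genes 5 rose and 1 fell, with a median log2 difference of 0.18. Pdcd1lg2, which encodes PD-L2, had 0 counts with IFNg and 1 count without and was not tested.

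Chemokines that draw T cells and monocytes rose, and Cxcl12 fell. Cxcl10, a ligand of the T cell receptor CXCR3, had 518, 541 and 557 CPM in the IFNg libraries and 125, 85.4 and 94.9 CPM in the NS libraries, a log2 difference of 2.40 (SE 0.11, adjusted p = 2.4e-26). Cxcl9, another CXCR3 ligand, had 26.9, 25.9 and 27.4 CPM with IFNg and 1.45, 0.719 and 0.53 CPM without (log2 difference 4.89, SE 0.18, adjusted p = 1.4e-27). The monocyte attractant Ccl2 had 821, 806 and 811 CPM with IFNg and 273, 225 and 192 CPM without (log2 difference 1.82). All 3 were clear of overlap, and Cxcl11 (2.13), Ccl8 (2.01), Ccl5 (1.86) and Ccl7 (1.55) rose likewise. Cxcl12, which holds leukocytes through CXCR4, had 0.54, 0.621 and 0.794 CPM with IFNg and 4.04, 3.24 and 4.59 CPM without, a log2 difference of -2.61 (SE 0.55, adjusted p = 0.00078). In all, 9 of 16 tested chemokines rose and 1 fell, with a median log2 difference of 1.69, or 1.35 with groups at 0 set to the floor. The call of Cxcl2, at 0.27, 0 and 0.595 CPM with IFNg and 0 counts without, was lost under 5 of the 6 settings that left out a library (adjusted p up to 0.17).

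Among cytokines and their receptors more genes rose than fell. Il18bp, which neutralises interleukin 18, had 99.4, 104 and 103 CPM in the IFNg libraries and 8.18, 8.87 and 5.92 CPM in the NS libraries, a log2 difference of 3.76 (SE 0.13, adjusted p = 1.9e-31). Interleukin 15 and the receptor chain that presents it rose together, Il15ra by 3.17 and Il15 by 1.66 on the log2 scale. Tnfsf10, which encodes the death ligand TRAIL, had 102, 94.7 and 93.1 CPM with IFNg and 16.3, 13.3 and 12.2 CPM without (log2 difference 2.80). Il33 was the largest fall of the list, with 5.27, 3.73 and 4.17 CPM with IFNg and 26.4, 26 and 31.2 CPM without (log2 difference -2.68, SE 0.24, adjusted p = 1.4e-13). Il1r1, the receptor of interleukin 1, fell too, to 31.1, 31.7 and 33.1 CPM with IFNg, against 56.7, 58.1 and 55.9 CPM without (log2 difference -0.84). Of 28 tested genes 12 rose and 2 fell, where 9.79% and 11.0% of all genes did, with a median log2 difference of 0.43. Il6 did not pass, and Il6 stayed under 1 CPM in all 6 libraries.

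Genes of inflammatory and apoptotic cell death rose more often than they fell. Of 34 tested genes 20 rose and 2 fell, with a median log2 difference of 0.38. Casp1, the inflammasome protease, had 67.9, 73.2 and 64.9 CPM in the IFNg libraries and 16.6, 18 and 15.6 CPM in the NS libraries, a log2 difference of 2.05 (SE 0.1, adjusted p = 2.2e-24). The death receptor Fas had 25.8, 23.9 and 27.2 CPM with IFNg and 6.73, 4.91 and 6.36 CPM without (log2 difference 2.08). Casp4 (1.5), Casp12 (1.33) and the necroptosis executor Mlkl (1.13) rose at least 2-fold, whereas Ripk3, the kinase that activates MLKL, had 0 counts in all 6 libraries. Gsdmd, cut by CASP1 and CASP4 to open pores, rose by 0.74. The survival gene Bcl2 fell by 0.64 on the log2 scale, while Bcl2l1 rose by 0.33 and Mcl1 (-0.05) did not pass. Apol6, an apolipoprotein L gene, had 275, 303 and 284 CPM with IFNg and 10.7, 11.1 and 11.6 CPM without (log2 difference 4.69, SE 0.1, adjusted p = 2.5e-41).

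Several further interferon families rose. All 10 tested genes of the Parp family and its partner Dtx3l rose, 3 of them at least 2-fold, with a median log2 difference of 0.90: Parp14, an ADP-ribosyl transferase, had 505, 487 and 468 CPM in the IFNg libraries and 241, 212 and 183 CPM in the NS libraries (log2 difference 1.20). Of 12 tested Schlafen and Ly6 genes 10 rose, with a median of 0.81. Ly6a, which encodes the surface antigen Sca-1, had 836, 878 and 892 CPM with IFNg and 94.6, 77.3 and 65.3 CPM without, a log2 difference of 3.46 (SE 0.1, adjusted p = 3.9e-36), and Ly6c1 rose by 3.06. In both the groups were several-fold apart. Serpinb9, which blocks granzyme B, had 37.1, 35.1 and 34.9 CPM with IFNg and 14.9, 13.4 and 14.8 CPM without (log2 difference 1.31). Of 12 tested serpins 5 rose and 2 fell, with a median of 0.12, or 0.09 with groups at 0 set to the floor.

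Metabolic effectors rose in part, some from 0. Wars, the tryptophan tRNA synthetase, had 301, 324 and 324 CPM in the IFNg libraries and 97.1, 88 and 75.2 CPM in the NS libraries, a log2 difference of 1.87 (SE 0.1, adjusted p = 1.5e-22). Ido1, which breaks tryptophan down, had 1.76, 1.55 and 0.794 CPM with IFNg and 0 counts without, and Acod1, which makes itaconate, had 7.97, 11.4 and 7.94 CPM with IFNg and 0.414, 0.36 and 0.177 CPM without. Nos2, the inducible nitric oxide synthase, had 2.97, 2.07 and 1.79 CPM with IFNg and 0.104, 0.12 and 0 CPM without (2 counts over the NS libraries, adjusted p = 0.0012). These 3 genes were off or nearly off in NS cells and low with IFNg. Upp1 (1.34) and Lap3 (1.15) rose at least 2-fold, while Ass1, which makes the precursor of arginine, and the transferrin receptor Tfrc each fell by 0.40 on the log2 scale. Of 22 tested genes 9 rose and 2 fell, with a median log2 difference of 0.19, or 0.32 with groups at 0 set to the floor.

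Complement genes were measured next. C4b had 242, 261 and 244 CPM in the IFNg libraries and 14.6, 11.3 and 10.1 CPM in the NS libraries, a log2 difference of 4.39 (SE 0.1, adjusted p = 2.5e-41), and Cfb (2.32) and C3 (2.14) rose as well. The complement inhibitor Cd59a fell by 1.21 on the log2 scale. Of 13 tested complement genes 5 rose and 2 fell, with a median of 0.30, or 0.39 with groups at 0 set to the floor. Among 18 adhesion genes 2 rose and 4 fell, where 9.79% and 11.0% of all genes did, with a median of -0.05, and nothing is read from these counts about adhesion genes as a group. Itgb7 had 52.7, 55.8 and 49.8 CPM with IFNg and 8.18, 10.5 and 7.33 CPM without (log2 difference 2.63), whereas Ncam1 had 111, 122 and 118 CPM with IFNg and 219, 208 and 226 CPM without (log2 difference -0.90). Icam1, a target of interferon in many cells, was under 1 CPM in all 6 libraries and did not pass.

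Most genes of the extracellular matrix list fell. Of 35 tested matrix and remodelling genes 26 fell and 2 rose, against 11.0% of all genes that fell, and the median log2 difference was -0.52. Postn (chr3:54361109-54391037), which encodes the matricellular protein periostin, had 0.405, 0.621 and 0.397 CPM in the IFNg libraries and 26, 24.6 and 22.7 CPM in the NS libraries, a log2 difference of -5.59 (SE 0.29, adjusted p = 3.3e-16) and the largest fall among genes with more than 3 counts in each group. Col1a1, a chain of collagen type I, had 5.27, 7.14 and 7.14 CPM with IFNg and 26.9, 26 and 28.8 CPM without (log2 difference -2.07, SE 0.15, adjusted p = 3.1e-17). The partner chain Col1a2 did not pass, with 2807, 2859 and 2722 CPM with IFNg and 2906, 2705 and 2944 CPM without. So of the 2 chains of collagen type I, the sparse Col1a1 fell and Col1a2 moved by less than the spread between libraries. Col11a1 (-2.41), Col12a1 (-2.10) and Eln (-1.47) fell at least 2-fold, and Thbs2 had 3 counts over the IFNg libraries and 80 over the NS libraries. The abundant Fn1, which encodes fibronectin, had 7398, 6631 and 7046 CPM with IFNg and 12994, 12989 and 11613 CPM without (log2 difference -0.84), Spp1 had 4531, 4428 and 4442 CPM with IFNg and 8056, 7674 and 8070.1 CPM without (-0.83), and Col3a1 had 1993, 1948 and 1923 CPM with IFNg and 3381, 3132 and 3373 CPM without (-0.75). None of these overlapped. The protease Mmp13 (1.44) and the fibrillin Fbn1 (0.26) rose. In bulk RNA, fewer cells of a kind and less RNA per cell cannot be told apart.

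**Figure D2:**
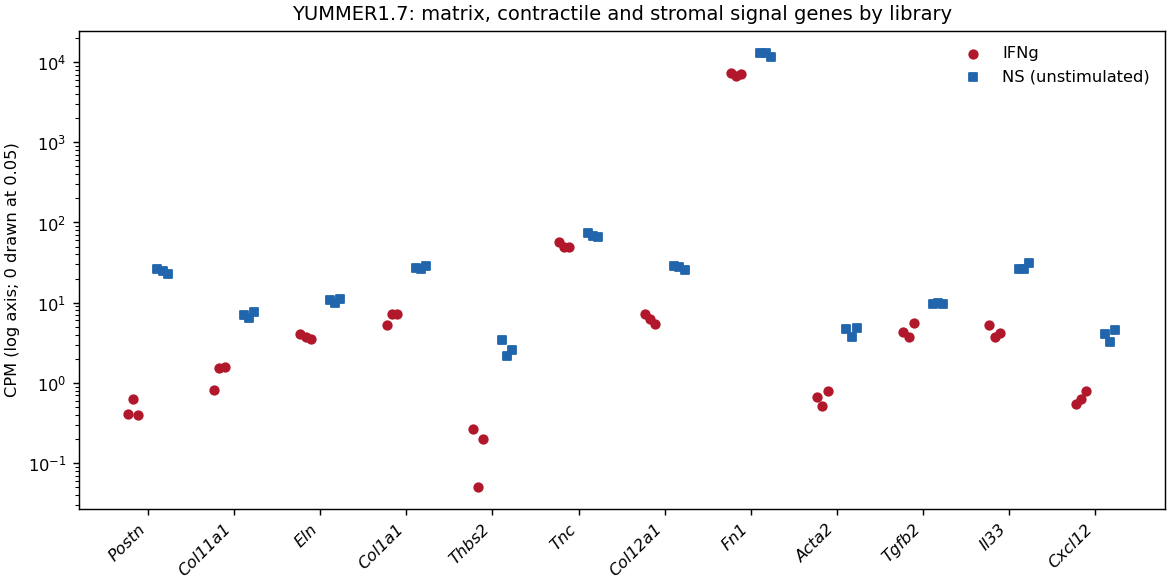
Level of 12 matrix, contractile and signalling genes in each YUMMER1.7 library, in CPM on a log axis, with IFNg left of NS; points are libraries, and 0 is drawn at 0.05 CPM. Postn, Thbs2 and Acta2 lie lower in all IFNg libraries than in any NS library, and Fn1 lies between 6631 and 7398 CPM with IFNg and between 11613 and 12994 CPM without.

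Genes of TGF-beta signalling, a main driver of matrix production, fell in part. Of 20 tested genes 10 fell and Ccn2 rose, with a median log2 difference of -0.27. Tgfb2, a ligand, had 4.32, 3.73 and 5.56 CPM in the IFNg libraries and 9.73, 9.83 and 9.72 CPM in the NS libraries (log2 difference -1.14, SE 0.23, adjusted p = 0.00012). The receptor Tgfbr2 had 129, 119 and 122 CPM with IFNg and 211, 205 and 202 CPM without (log2 difference -0.74), and the feedback genes Skil (-0.98) and Smad7 (-0.37) fell. Acta2 (chr19:34241090-34255590), the smooth muscle actin of contractile cells, had 0.675, 0.518 and 0.794 CPM with IFNg and 4.76, 3.71 and 4.86 CPM without (log2 difference -2.79, SE 0.37, adjusted p = 3.1e-08). The activin subunit Inhba fell by 1.25 on the log2 scale. Bmp4 fell by 1.7, a call lost without IFNg replicate 1 (adjusted p = 0.13) and without NS replicate 1 or 3. Tgfb1 (0.03) and the signal carriers Smad2 (0.12), Smad3 (-0.08) and Smad4 (0) did not pass, and Ccn2, often used as a readout of the pathway, was the member that rose (log2 difference 0.84).

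Fibroblast and pericyte markers were summed as a check of other cell types. The 12 listed genes summed to 1350, 1352 and 1319 CPM in the IFNg libraries and 1343, 1248 and 1279 CPM in the NS libraries, so their total did not fall. Abundant genes weigh most in such a sum, so it says little about the sparse ones. Of 10 tested genes 4 fell and 2 rose, with a median log2 difference of -0.25, or -0.48 with groups at 0 set to the floor. Rgs5 (-1.59), Dpt (-1.55), Dcn (-0.92) and Pdgfrb (-0.64) fell, Pdpn (0.53) and Cspg4 (0.33) rose, and Pdgfra had 478, 465 and 458 CPM with IFNg and 493, 434 and 468 CPM without. The 8 endothelial markers summed to 18.23, 16.25 and 16.87 CPM with IFNg and 26.81, 24.09 and 23.33 CPM without, mostly through Cdh5, and none of the 3 tested passed. The 12 epithelial markers summed to 6.078, 6.936 and 9.128 CPM with IFNg and 3.002, 2.756 and 2.916 CPM without; only Dsp rose (log2 difference 3.23). The part of these markers in the falls of matrix genes was not tested.

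Beyond the matrix, the largest falls were of mixed kinds. Tbx2, a transcription factor that blocks senescence in melanoma cells, had 6.75, 4.35 and 5.75 CPM in the IFNg libraries and 41.1, 40.9 and 43.7 CPM in the NS libraries, a log2 difference of -2.93 (SE 0.14, adjusted p = 8.6e-25). The methyltransferase Inmt (-4.19), the clotting factor subunit F13a1 (-3.66), the growth factor Igf1 (-3.11), Dhrs3 (-3.0), Scg2 (-2.97) and Megf10 (-2.90) also fell from low levels. Ptpn5 had 1.35, 0.725 and 1.19 CPM with IFNg and 3.31, 15 and 12.5 CPM without (log2 difference -3.26, adjusted p = 0.00022), where NS replicate 1 lies far under the other NS libraries. The chemokine Ccl11 fell by 2.74 (adjusted p = 0.021), a call lost without IFNg replicate 2 (adjusted p = 0.11), without IFNg replicate 3 and without NS replicate 1. Among genes with at most 3 counts over the IFNg libraries, Aspn, a small proteoglycan, had 0 counts with IFNg and 1.35, 0.959 and 1.86 CPM without, at least 10.6-fold lower. Nanp had 0 counts with IFNg and 1.97, 2.28 and 3.36 CPM without, at least 19.1-fold lower, and its adjusted p of 0.042 was not kept under 5 of 6 settings that left out a library.

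Lineage genes of melanoma were also counted. Of 24 tested melanocyte genes 2 rose and 2 fell, where 9.79% and 11.0% of all genes did. The median log2 difference was 0, or 0.08 with groups at 0 set to the floor. Of the 25 listed genes 7 had 0 counts in both groups, and only 15 of those tested exceeded the floor in either. Nothing is therefore read from these counts about the list as a whole. Gpnmb, which encodes a glycoprotein of melanosomes and lysosomes, had 586, 624 and 589.8 CPM in the IFNg libraries and 411, 407 and 376 CPM in the NS libraries, a log2 difference of 0.59 (SE 0.08, adjusted p = 5.1e-08). The neural crest factor Tfap2a rose by 0.51, and the melanosome carrier gene Mlph fell by 0.61. Of 27 neural crest and dedifferentiation genes 5 rose and 8 fell, with a median of 0.11. Among them the AP-1 members Fosl1 (0.62) and Jun (0.40) and Axl (0.22) rose, and Aqp1 (-0.61), Sox4 (-0.61), Id3 (-0.71) and Egfr (-1.04) fell. Ngfr, a marker of neural crest-like melanoma, rose to 4.32, 4.76 and 6.15 CPM with IFNg, against 2.38, 2.16 and 1.77 CPM without (log2 difference 1.26, adjusted p = 0.013), a call lost without IFNg replicate 3 (adjusted p = 0.06) or NS replicate 3. Output genes of the MAPK pathway, which the Braf mutation drives, went both ways: 5 of 22 rose and 6 fell, with a median of -0.01. Spry1, an inhibitor induced by that pathway, had 6.89, 6.0 and 6.75 CPM with IFNg and 22.6, 21.2 and 24.5 CPM without (log2 difference -1.81, SE 0.12, adjusted p = 1.4e-17), while the immediate early gene Egr1 had 265, 296 and 264 CPM with IFNg and 145, 148 and 141 CPM without (log2 difference 0.93).

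Proliferation genes were for the most part level. Of 33 tested cell cycle and replication genes 4 rose and 1 fell, where 9.79% and 11.0% of all genes did. The median log2 difference was 0.02. Ccne1, which encodes cyclin E1, had 26.1, 24.6 and 27.6 CPM in the IFNg libraries and 9.11, 8.99 and 9.19 CPM in the NS libraries, a log2 difference of 1.51 (SE 0.11, adjusted p = 1.1e-17). Mybl2 (0.36), Top2a (0.29) and Foxm1 (0.21) rose a little. Mki67 had 209, 199 and 203 CPM with IFNg and 249.7, 259 and 259 CPM without (log2 difference -0.33, adjusted p = 0.043), a call lost under each setting that left out a library (adjusted p from 0.058 to 0.12). Ccnb1 (0.03), Cdk1 (0.01) and Pcna (-0.05) did not pass. Of 19 p53 targets and cell cycle inhibitors 3 rose and 5 fell, beside the same shares of all genes, with a median of -0.10. Gadd45a (-0.84) and Plk2 (-0.64) fell, and Mdm2 rose by 0.41. Cdkn1a did not pass, with 377, 408 and 381 CPM with IFNg and 394, 387 and 415 CPM without. Myc rose by 0.35, with 4 of 17 genes of MYC and ribosome biogenesis rising, none falling and a median of 0.05.

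Lipid synthesis genes fell together by small amounts. Of 24 tested cholesterol genes 14 fell and none rose, with a median log2 difference of -0.26, and of 11 fatty acid genes 7 fell and none rose, with a median of -0.28. Sc5d, an enzyme of late cholesterol synthesis, had 40.3, 37.8 and 40.5 CPM in the IFNg libraries and 56.5, 57.2 and 61.1 CPM in the NS libraries, a log2 difference of -0.57 (SE 0.07, adjusted p = 5.6e-09). Hmgcs1, an early enzyme of the pathway, had 112, 116 and 109.9 CPM with IFNg and 150.4, 143 and 164 CPM without (log2 difference -0.43), and Acss2, which makes acetyl-CoA from acetate, fell by 0.96. In these 3 genes the groups did not overlap. The count of fallen fatty acid genes was 4 when NS replicate 3 was left out. That library was also the highest of all 6 for the glycolysis gene Eno1 (1741, 1867 and 1864 CPM with IFNg, 1717, 1794 and 2475 CPM without) and the hypoxia gene Bnip3 (103, 93.2 and 118 CPM with IFNg, 92.1, 105 and 164 CPM without), and the labels give no reason. Of 22 glycolysis and hypoxia genes 3 rose and 3 fell, where 9.79% and 11.0% of all genes did, with a median of -0.12. The hexokinases Hk2 (0.88) and Hk1 (0.65) rose, and Vegfa fell, to 82.8, 92.6 and 84.5 CPM with IFNg, against 139, 124 and 133 CPM without (log2 difference -0.60).

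Stress and NF-kB genes rose in part. Of 18 NF-kB subunits and targets 13 rose and none fell, with a median log2 difference of 0.43, led by the inhibitors Nfkbie (1.07), Tnfaip3 (0.92), Nfkbiz (0.85) and Nfkbia (0.66). Of 18 genes of the ER stress and ATF4 response 6 rose and 4 fell, with a median of -0.06. Atf3 had 26.7, 33 and 34.1 CPM in the IFNg libraries and 13.9, 10.5 and 9.1 CPM in the NS libraries, a log2 difference of 1.49 (SE 0.18, adjusted p = 3e-09), and Sdf2l1 (1.0) and Ddit3 (0.89) rose, while Ddit4 fell by 0.43. Atf4 itself did not pass (-0.15). Among 20 lysosome and trafficking genes 3 rose and 4 fell, where 9.79% and 11.0% of all genes did, with a median of 0.01. Ctsh, a cathepsin, had 261, 272 and 251 CPM with IFNg and 108, 103 and 115 CPM without (log2 difference 1.27). The abundant Ctsl fell by 0.27. Of 13 mitochondrially encoded genes mt-Cytb (-0.59) and mt-Nd4l (-0.40) fell, but the count depended on the fit: 12 fell with no filter on low counts, 10 in a fit of the YUMMER1.7 libraries alone, and 1 with RLE scaling, with limma-voom or without any of the libraries except NS replicate 3. The mitochondrial share of counts was 2.13%, 2.1% and 2.28% in the IFNg libraries and 2.5%, 2.61% and 2.47% in the NS libraries.

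The response of YUMMER1.7 was then set against that of the other 7 lines, as the log2 difference in YUMMER1.7 minus the mean of theirs. It was at least 2-fold below their mean for 266 genes (1.65% of genes tested) and at least 2-fold above it for 76 (0.471%), at an adjusted p under 0.05. For 215 of the 266 genes the unstimulated level in YUMMER1.7 lay above that of the other lines, and for 20 below it. With IFNg the level lay above theirs for 168 of the 266 and below it for 68. Of the 266 genes 142 rose in YUMMER1.7 and 72 fell, and of the 76 genes 56 rose and none fell. With DESeq2 and with limma-voom the genes above numbered 120 and 178. A line cannot be told apart from the way its libraries were made. For 4262 of the 16147 genes some group of another line had 0 counts, and there the difference depends on the count added before taking logs. Of the called genes, 81 of the 266 and 24 of the 76 are of that kind. Other such genes had an SE too large for any call, as Postn (difference -5.24, SE 13289.55) and Clic5 (3.64, SE 59.04). Their absence from the 266 and the 76 does not show a response like that of the other lines.

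**Figure D3:**
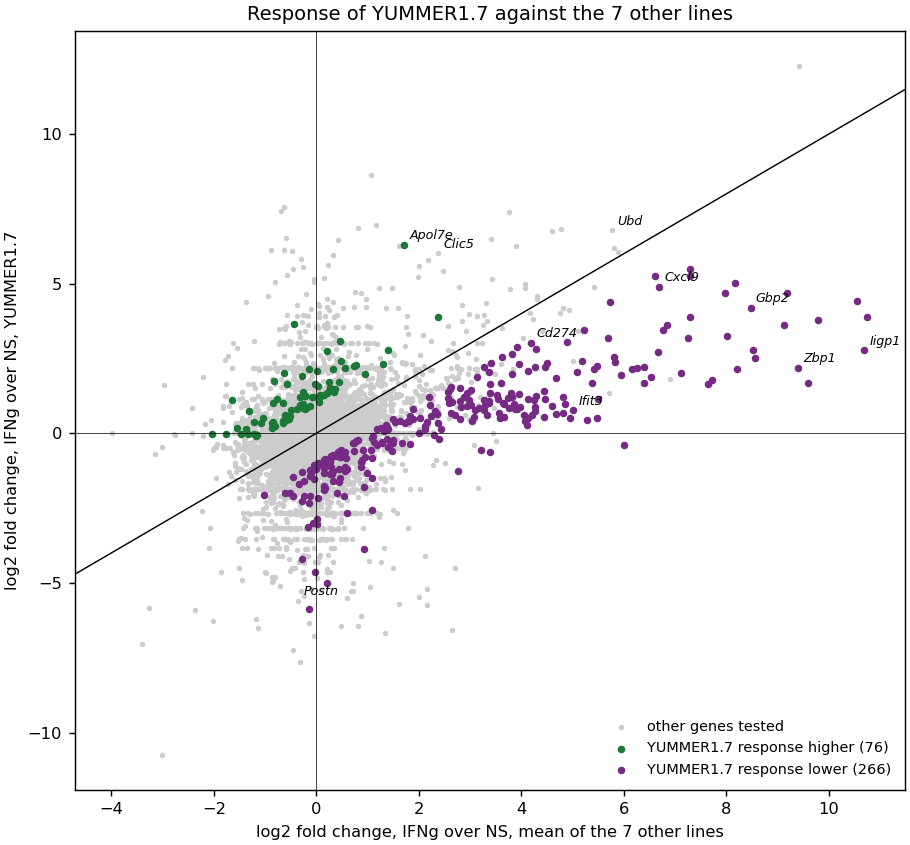
Response to IFNg of each gene tested, as the mean log2 difference of 7 other lines on the x axis and the log2 difference of YUMMER1.7 on the y axis, with the line of equal response. Purple points are the 266 genes with a response at least 2-fold below the mean of the other lines, and green points the 76 genes at least 2-fold above it; the purple points spread to the right, where the other lines rose by more.

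The genes with a response below that of the other lines included many of the interferon genes named above. Counting differences of any size, where 7.23% of all genes lay below and 6.58% above, 31 of 38 antiviral effectors, 16 of 20 nucleic acid sensors, 12 of 12 immunity-related GTPases, 10 of 11 guanylate-binding proteins, 19 of 29 class I genes, 8 of 15 regulatory factors and 8 of 10 Parp genes had a response below the mean of the other lines; 4 of the antiviral effectors among them (Oas1c, Isg20, Ifitm3 and Eif2ak2) did not themselves pass in YUMMER1.7. The mean includes B16.1, where the median log2 difference was 6.27 for the antiviral effectors, 6.69 for the nucleic acid sensors and 5.49 for the class I genes. In YUMMER1.7 these medians were 0.61, 0.86 and 1.98, in CT26.2 0.96, 0.79 and 1.81, and in Renca 1.0, 0.83 and 1.77, while in KPC.2 they were 3.87, 2.86 and 3.29. The log2 rise in YUMMER1.7 and the average rise in the others were 1.04 and 2.64 for B2m (difference -1.60, SE 0.07, adjusted p = 1e-28), 3.02 and 4.18 for Cd274 (-1.16), 2.89 and 3.93 for Irf1 (-1.03) and 2.40 and 5.20 for Cxcl10 (-2.79). Ciita and Cd74 did not differ by the test, with 4.02 and 4.76 for Ciita (difference -0.74, SE 0.75) and 4.17 and 4.81 for Cd74 (-0.64, SE 0.56).

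YUMMER1.7 levels were also compared with the mean level of the other lines, counting genes past the test at any size. Without IFNg, 37 of 38 antiviral effectors, 18 of 20 nucleic acid sensors and 12 of 12 immunity-related GTPases lay above it. So did 10 of 11 guanylate-binding proteins and 23 of 29 class I genes, and only 2 sensors lay below it. With IFNg, in the same order, 35, 18, 12, 9 and 24 genes lay above it, and 1, 1, 0, 1 and 2 below it. Levels in single lines are given next, with 3 libraries in each group except LLC with IFNg and Renca without it (n = 2 each). Ifit3 averaged 2819 ± 63.2 CPM (SD, n = 3) with IFNg and 1654 ± 161 CPM (n = 3) without in YUMMER1.7. In B16.1 it averaged 1729 ± 54.3 CPM with IFNg and 2.62 ± 0.656 CPM without, and in Panc02.3 1338 ± 50.2 CPM with IFNg and 18.4 ± 3.5 CPM without. Unstimulated YUMMER1.7 cells thus held a higher Ifit3 level in CPM than LLC cells given IFNg (6.66 ± 0.634 CPM, n = 2), MC38.7 (19.0 ± 1.99 CPM), Renca (65.5 ± 10.6 CPM), KPC.2 (122 ± 6.65 CPM) or CT26.2 (313 ± 14.8 CPM), and about as much as B16.1 cells given IFNg. Irf7 was less extreme: with IFNg it averaged 473 ± 18.2 CPM in YUMMER1.7, below Renca (699 ± 94.5 CPM), CT26.2 (666 ± 14.3 CPM) and B16.1 (525 ± 27.4 CPM), and without IFNg 285 ± 36.3 CPM in YUMMER1.7, 278 ± 8.54 CPM in Renca and 248 ± 13.3 CPM in CT26.2, of which Renca lies within 1 SD of YUMMER1.7 and CT26.2 just outside it. For Zbp1 the order was clearer, with 568 ± 18.5 CPM with IFNg and 125 ± 15.5 CPM without in YUMMER1.7, while no other unstimulated line exceeded the mean of 13.4 ± 1.36 CPM in Renca. Cd274 averaged 275 ± 10.9 CPM with IFNg and 34.0 ± 7.38 CPM without in YUMMER1.7, close to Panc02.3 with IFNg (271 ± 15.8 CPM) and to Renca without (38.6 ± 3.92 CPM), and below CT26.2 with IFNg (316 ± 19.0 CPM). Gbp2 reached 3343 ± 59.7 CPM with IFNg in YUMMER1.7, below KPC.2 (7851 ± 302 CPM) and B16.1 (3836 ± 95.8 CPM) and above the other 5 lines.

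**Figure D4:**
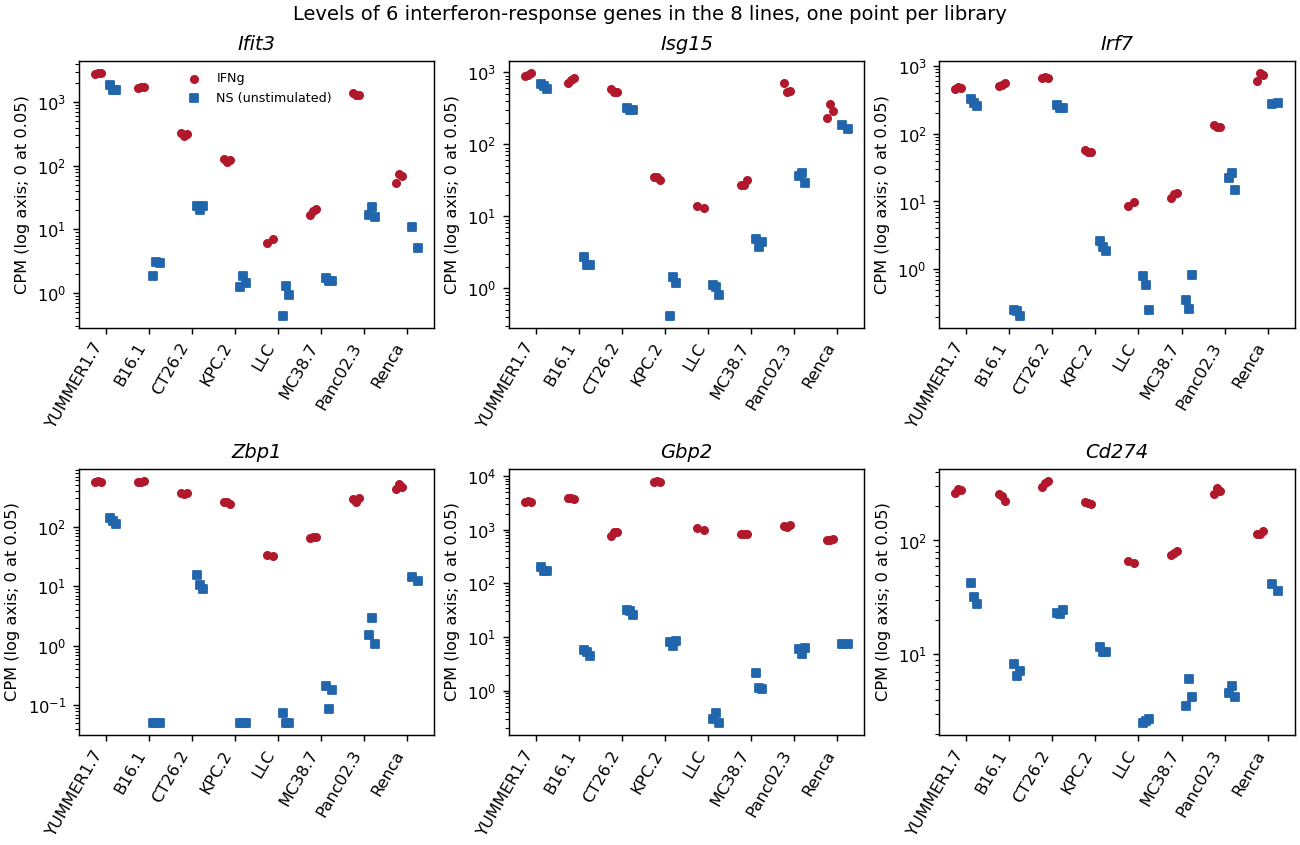
Level of Ifit3, Isg15, Irf7, Zbp1, Gbp2 and Cd274 in the IFNg and NS libraries of 8 lines, in CPM on a log axis, YUMMER1.7 first and IFNg before NS in each line; points are libraries, and 0 is drawn at 0.05 CPM. Unstimulated YUMMER1.7 libraries lie between 1538 and 1838 CPM for Ifit3, above every other unstimulated line.

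Some genes rose by more in YUMMER1.7 than in the mean of the other lines. Apol7e rose by 6.30 on the log2 scale in YUMMER1.7 and by 1.71 on average in the other lines (difference 4.59, SE 0.66, adjusted p = 2.6e-07). Adgrv1, an adhesion receptor gene, had 8.1, 7.25 and 7.34 CPM in the IFNg libraries and 1.14, 0.719 and 0.795 CPM in the NS libraries (difference 2.62, SE 0.57, adjusted p = 0.00059), and the potassium channel subunit Kcnab1 had 13.4, 13.1 and 13.1 CPM with IFNg and 3.0, 1.44 and 1.41 CPM without (difference 2.55, SE 0.57, adjusted p = 0.0009). In all 3 the YUMMER1.7 groups were without overlap. H2-Q7 (3.90 in YUMMER1.7 and 2.37 in the others), Ccne1 (1.51 and 0.26), Ctsh (1.27 and 0.14), Egr1 (0.93 and -0.32) and Cfb (2.32 and 1.29) were also among the 76 genes. Of 33 cell cycle genes 13 lay above the mean response of the other lines and none below, at any size. Their median log2 difference was 0.02 in YUMMER1.7 and -1.95 in B16.1, and lay between 0 and 0.28 in the other 6 lines. Col1a1, which fell by 2.07 on the log2 scale in YUMMER1.7 and by 1.03 on average elsewhere, and Col12a1 (fell by 2.10 and by 0.45) were among the 266, and of 35 matrix genes 13 lay below the other lines and 1 above, at any size.

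The same genes were also counted in each other line. Of the 382 genes that rose at least 2-fold, 73 rose as much in all 7 other lines and 69 in none of them. By line, 263 of the 382 rose at least 2-fold in B16.1, where 11.7% of all genes tested did, 226 in KPC.2 (4.27% of all genes), 190 in Panc02.3 (8.82%), 190 in LLC (2.14%), 155 in Renca (1.64%), 147 in CT26.2 (1.54%) and 128 in MC38.7 (1.25%). The lines differed in how many genes rose in all, so the order of these counts is no order of likeness to YUMMER1.7. Of the 251 genes that fell, 111 fell at least 2-fold in no other line, 93 in 1, 39 in 2 and 8 in 3, and none in more. In Panc02.3, where 13.6% of all genes fell at least 2-fold, 92 of the 251 did, in KPC.2 43 (2.69% of all genes) and in B16.1 37 (7.65%), while 31 of the 251 rose at least 2-fold in B16.1. Postn is such a gene: it averaged 31.1 CPM with IFNg and 13.4 CPM without in B16.1. These counts are shares of the YUMMER1.7 lists and were given no test of overlap.

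Against B16.1 alone, the other melanoma line, the response differed for many more genes. It was at least 2-fold below that of B16.1 for 1613 genes (9.99%) and at least 2-fold above it for 968 (5.99%). Of the 1613 genes 1292 rose at least 2-fold in B16.1 and 94 fell at least 2-fold in YUMMER1.7, and of the 968 genes 808 fell at least 2-fold in B16.1 and 35 rose at least 2-fold in YUMMER1.7. For Cd274 the difference between the responses was -2.03 (SE 0.14), for Irf1 -3.15 (SE 0.1) and for B2m -3.82 (SE 0.09). With IFNg the levels of both melanoma lines were near each other for Irf1 (785 ± 39.5 CPM in YUMMER1.7, 778 ± 9.55 CPM in B16.1) and B2m (3602 ± 39.3 CPM, 3481 ± 64.8 CPM), and without IFNg far apart (106 ± 7.16 CPM in YUMMER1.7 and 11.8 ± 0.258 CPM in B16.1 for Irf1, 1751 ± 116 CPM and 120 ± 3.76 CPM for B2m; SD, n = 3 each). Levels with IFNg were not near each other for every gene. Cxcl10 averaged 538 ± 19.7 CPM in YUMMER1.7 and 2478 ± 22.6 CPM in B16.1. Tgtp1 was also lower in YUMMER1.7 (1723 ± 37.8 CPM, 4763 ± 73.9 CPM). Ifit3 was higher in YUMMER1.7 (2819 ± 63.2 CPM, 1729 ± 54.3 CPM). At any size, 19.5% of all genes lay above the B16.1 response and 23.1% below it. Of 33 cell cycle genes 31 lay above it and 2 below, and of 38 antiviral effectors none lay above it and 34 below. Mki67 averaged 52.8 CPM with IFNg and 557 CPM without in B16.1, while its YUMMER1.7 libraries held 199 to 209 CPM with IFNg and 249.7 to 259 CPM without. Of 24 cholesterol genes 17 also lay above the B16.1 response, with Insig1 at 74.5 CPM with IFNg and 417 CPM without in B16.1 and at 69.2, 82 and 82.2 CPM with IFNg and 104, 105 and 103 CPM without in YUMMER1.7.

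IFNb gave other values in the same line. Its comparison uses the same 3 NS libraries, so the values are only set side by side. With IFNb over NS, Gbp4 had a log2 difference of -0.29 (adjusted p = 0.21) where IFNg gave 4.68, and Irf1 had a log2 difference of -0.06 (adjusted p = 0.82) where IFNg gave 2.89. B2m rose by 0.38 with IFNb (adjusted p = 2.6e-05). Cxcl10 had 63.8, 65.4 and 64.5 CPM with IFNb, 518, 541 and 557 CPM with IFNg and 125, 85.4 and 94.9 CPM in NS libraries, and fell by 0.66 on the log2 scale with IFNb (adjusted p = 0.00035). Cd274 likewise fell by 0.41 with IFNb (adjusted p = 0.013) and rose by 3.02 with IFNg. Postn had 8.5, 6.46 and 6.61 CPM with IFNb and fell by 1.77 (adjusted p = 4e-07), and Acta2 fell by 1.77 as well (adjusted p = 0.00038), both in the direction of IFNg but by less. Il33 had 24.5, 29.4 and 26.8 CPM with IFNb and did not pass (log2 difference -0.05).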

How the data were processed

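RNA of 70 libraries of 8 mouse cancer cell lines was prepared with a strand-specific kit, per the labels' protocols. The submitters' processing notes name Trimmomatic 0.36, a read trimmer, kallisto, a transcript quantifier, and the genome build mm10. The version of kallisto and the transcript annotation are not given in the sources used here. The table holds estimated counts per gene, which the authors deposited as whole numbers. Estimated counts divide reads between near-identical genes by a model, so values of single paralogs are less certain than sums. The 6 libraries described held 5549342 to 12506596 counts.

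All genes were fitted with edgeR 4.0.16 in R 4.3.3 (TMM scaling, filterByExpr over 24 groups, quasi-likelihood fit without a replicate term), leaving 16147 of 35197 genes, with Benjamini-Hochberg adjustment over them and a threshold of 0.05. Counts over all genes also required a 2-fold change. CPM use TMM-scaled library sizes. Bounds for genes at 0 use a floor of 3 counts over a group, 0.136 CPM for IFNg and 0.102 CPM for NS, and cover counting error only. The fit was tested on simulated counts. Alternatives were RLE scaling, no filter, DESeq2 1.42.0, limma-voom (limma 3.58.1), a fit of the libraries compared alone, a replicate block, no fold threshold and leaving out each YUMMER1.7 library. Gene positions are from GENCODE vM21 and promoters from RefSeq, both on GRCm38.

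Named genes were the 12 largest rises and 12 largest falls among named genes with more than 3 counts in each group and no overlap, the 6 most abundant risen or fallen genes with at most 3 counts in the lower group, up to 4 changed and 2 members that did not pass of each of 38 lists, the 6 largest differences each way from the other lines and from B16.1, and a few fixed genes, among them Cdkn2a, Cd274, Irf1, Socs1, B2m, Ciita, Cd74, Cxcl9 and Cxcl10. Other genes in the text were chosen after their values were seen. The comparison and the lists were chosen with earlier results of these data known. The genes shown by their level in each line, and the gene groups under other observations, were added after seeing the data. Some genes that the rule selects are not reported here.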

Additional observations from a re-analysis of the deposited data

Results flagged for a closer look

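The response of YUMMER1.7 to IFNg differed from that of the other lines by a test of the difference itself, for 76 genes above and 266 genes below the mean of the 7 other lines, and for 968 genes above and 1613 genes below B16.1, each at least 2-fold. Of these, 24 of the 76 and 81 of the 266 have a group of another line with 0 counts, and 49 of the 968 and 333 of the 1613 have at most 3 counts in a B16.1 group. For such genes the log2 difference depends on the count added before taking logs and is no bound.

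Below the other lines, the difference of log2 responses was -7.92 for Iigp1, -7.9 for Tgtp2, -7.2 for Zbp1, -6.86 for Tgtp1, -6.13 for Gbp10 and -6.02 for Gbp6, all of them genes with a group at 0 in another line. Above the other lines it was 4.59 for Apol7e, 2.62 for Adgrv1 and 2.55 for Kcnab1, which have counts in every group. It was 2.66 for Crocc2, 2.75 for Slit1 and 2.59 for Adgrf5. Slit1 had 7 counts over the IFNg libraries and 4 over the NS libraries, and Adgrf5 had 11 and 4, so both rest on very few counts.

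Against B16.1, the difference was -14.63 for Tgtp1, -14.45 for Tgtp2, -13.91 for Iigp1, -13.52 for Oas2, -13.29 for Zbp1 and -13.21 for Gbp6. None of the 6 genes had a count in unstimulated B16.1 cells. With IFNg, B16.1 averaged 4763 CPM for Tgtp1, 922 CPM for Tgtp2, 1339 CPM for Iigp1, 202 CPM for Oas2, 579.7 CPM for Zbp1 and 697 CPM for Gbp6. In the other direction it was 12.08 for the pseudogene Pgam1-ps2, 8.71 for Zxda, 6.85 for Crocc2, 5.71 for Apol7e, 5.64 for Cck and 5.38 for Fam81a. B16.1 cells given IFNg had 0 counts of Pgam1-ps2, Zxda, Crocc2 and Cck, 9 of Apol7e and 11 of Fam81a. Pgam1-ps2 resembles its parent gene closely, so its estimated counts are uncertain.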

How the results depend on the processing

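No result changed its direction under the alternatives run. Without the fold threshold, 1580 genes rose and 1778 fell, 1062 lay above and 1167 below the mean response of the 7 other lines, and 3144 above and 3736 below that of B16.1. The count above the other lines was 76, and 120 with DESeq2 and 178 with limma-voom; the cause was not tested. All other counts stayed within 1.5 times of those reported. Leaving out 1 YUMMER1.7 library gave 352 to 389 risen and 200 to 227 fallen genes, 64 to 74 above and 241 to 257 below the other lines, and 954 to 1005 above and 1518 to 1583 below B16.1.

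Same-numbered IFNg and NS libraries did not deviate together (Pearson r across genes of 0.009, -0.05 and -0.036), so the numbers pair nothing known. With the replicate number as a block, 372 genes rose and 225 fell, 70 lay above and 248 below the other lines, and 948 above and 1548 below B16.1. Of 171 named genes past the test, 152 kept sign and call in every alternative that gave them an adjusted p, and the block lost 7. An alternative that left a gene out was not counted for that gene. Calls of Slit1 and Adgrf5 against the other lines were lost in some alternatives. List counts that moved include fallen mitochondrial genes (2, and 12 with no filter or 10 in YUMMER1.7 libraries alone), risen class II genes (6, and 2 in those libraries alone) and fallen ER stress genes (4, and 1 without NS replicate 1). The fit of YUMMER1.7 libraries alone tested 12223 genes after its own filter, and genes it left out count there as not changed. Genes under about 1 CPM rest on few counts, most of all in IFNg replicate 3, the shallowest library.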

Other observations

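Other gene groups, picked after their values were seen, also moved with IFNg in YUMMER1.7 and are given as values only. Of 10 tested apolipoprotein L genes 7 rose and none fell, with a median log2 difference of 1.84, all 4 tested Phf11 genes rose (median 1.21) and all 11 tested PYHIN genes rose (median 1.29). The median of the apolipoprotein L genes rests in part on Apol11b, with 1 count over the IFNg libraries and 0 over the NS libraries. It also includes Apol11a, with 0 counts in both groups. Phf11d had 487, 480.4 and 488 CPM in the IFNg libraries and 249, 218 and 189 CPM in the NS libraries. These families hold close copies, so the counts of single members are uncertain. Of 13 small leucine-rich proteoglycans 7 fell and none rose, with a median of -0.59. Ogn, which encodes osteoglycin, had 4.19, 4.87 and 3.77 CPM with IFNg and 22.6, 15.6 and 18.8 CPM without, a log2 difference of -2.12. Of 12 contractile genes 6 fell and none rose, with a median of -0.23.

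Of 36 Wnt pathway genes 9 fell and 3 rose, where 11.0% and 9.79% of all genes did, with a median log2 difference of -0.23. Dkk2, a secreted Wnt regulator, had 82.5, 75.5 and 74.8 CPM with IFNg and 209.7, 212 and 232 CPM without (log2 difference -1.49, SE 0.08, edgeR adjusted p = 3.5e-23). Axin2, a feedback target of the pathway, fell by 1.56 on the log2 scale, and Fzd7 (0.73), Fzd8 (0.74) and Sfrp1 (1.0) rose.

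The receptor of interleukin 33 moved opposite to its ligand. Il1rl1, which encodes that receptor, had 661, 663 and 621 CPM with IFNg and 184, 152 and 132 CPM without (log2 difference 2.06, SE 0.08, edgeR adjusted p = 3.3e-29), while Il33 fell by 2.68. The shared coreceptor chain Il1rap had 89.7, 88.5 and 93.5 CPM with IFNg and 92.7, 79.5 and 82.7 CPM without and did not pass. Ifnb1, the gene of interferon beta itself, had 2.57, 3.93 and 4.17 CPM with IFNg and 1.86, 1.2 and 0.619 CPM without (log2 difference 1.53, edgeR adjusted p = 0.053), and had 0 counts in 10 of the 14 groups of IFNg or NS libraries of the other lines.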
